A study of Mus musculus with 16 samples.

Results

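DNA methylation was read at the genes of the 4 mouse Hox clusters in immortalised mouse embryonic fibroblasts (MEFs). The set comprised 38 genes, 10 in HoxA on chromosome 6, 10 in HoxB on chromosome 11, 9 in HoxC on chromosome 15 and 9 in HoxD on chromosome 2, each taken with the 2000 bp upstream of its start in the GENCODE M21 annotation. A CpG was used where all 16 libraries had at least 10 reads, which left 3470 CpGs in these genes of 1203687 in all, and 777 of the 3470 lay in more than 1 member because the genes of a cluster overlap or lie close together. The number of CpGs per member ran from 29 at Hoxd8 to 535 at Hoxa3, so a gene's level describes its captured CpGs and not its whole sequence. The level of a gene, cluster or CpG is the percentage of reads that were methylated, summed over its CpGs in one library.

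A pair of families of C57BL/6J cells were compared, each begun from an E13.5 embryo and named MEF-1 and MEF-2. The MEFs were immortalised by serial passage, single cells were isolated by flow cytometry, and 7 clonal lines per family were grown from single cells, so that there were 14 clonal libraries and 2 parental libraries, 1 for each family. The study gives the embryos as siblings, MEF-1 male and MEF-2 female, so that embryo, sex, immortalisation and culture history cannot be told apart in any comparison of the families. No treatment and no engineered allele was part of these groups. The clonal lines of a family come from 1 parental culture, and their spread is the spread between lines of that culture and not between animals.

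Hox genes encode homeodomain transcription factors that give cells their identity along the body axis. Their order within a cluster matches the order of the body levels at which they act, from the anterior genes with low paralogue numbers to the posterior genes with high numbers, and genes with the same number in different clusters are paralogues that descend from 1 ancestral gene. Cultured fibroblasts are known to keep a Hox expression pattern of the site they came from. Silent Hox genes are classically held by Polycomb repressors on CpG-rich DNA with little methylation, while active ones carry Trithorax-dependent marks. These data hold methylation only, and expression of the Hox genes was not analysed here.

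Each library held between 59243669 and 90633091 methylation calls in all and between 38485592 and 57348851 at the CpGs used, and the median Hox CpG was covered by 29 reads in a library, against 32 for all CpGs. Coverage of the Hox chromosomes stood apart in a few lines. Relative to the rest of the genome it was 1.28 on chromosome 15 in MEF-1 line 5 and 0.784 on chromosome 2 in MEF-2 line 3, the chromosomes of HoxC and HoxD. The labelled cell type could be checked at few places, since only 3 of 10 fibroblast marker promoters were measured, with MEF-1 levels of 1.56 to 71.1% and MEF-2 levels of 1.52 to 72.3%. Vim, which encodes the intermediate filament protein of mesenchymal cells, had the lowest of these levels in both families, and S100a4 the highest. Pdgfra, a growth factor receptor of fibroblasts, stood at 57.7% in MEF-1 against 3.26% in MEF-2, and its part in the family differences was not tested. These 2 values were also the fibroblast medians. The medians of epithelial, blood, endothelial and pluripotent promoters were 31.7, 65.2, 69.7 and 59.7% in MEF-1, and 18.2, 75.4, 61.9 and 59.1% in MEF-2. In MEF-1 the measured promoters thus did not set fibroblasts apart.

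The Hox genes were methylated at a lower level than the genome covered by the capture. Over all Hox CpGs, the level was 23.5% ± 0.426 in the MEF-1 clonal lines and 19.1% ± 0.712 in the MEF-2 clonal lines (SD, n = 7 each), against 45.8% ± 0.326 and 44.1% ± 0.54 over all CpGs. Of the 38 members, 27 lay under 25% in MEF-1 against 32 in MEF-2, where 31.3% and 33.0% of all 20202 genes did. The median member was at 18.4% in MEF-1 against 17.0% in MEF-2, and the median gene at 39.7% and 37.5%. Hox CpGs lay in denser CpG sequence, with a mean of 10.3 other CpGs within 100 bp on either side against 7.00 for all CpGs. The lower Hox level did not hold at the densest sites. With 16 or more other CpGs in that window, Hox CpGs stood at 13.1% ± 0.887 in MEF-1 and at 14.4% ± 1.73 in the MEF-2 lines (SD, n = 7), and all CpGs at 10.2 and 10.5%.

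The clusters differed in level, and HoxC was the least methylated in both families. In the MEF-1 clonal lines HoxB stood at 29.8% ± 1.25, HoxA at 27.7% ± 0.75, HoxD at 21.4% ± 0.962 and HoxC at 13.2% ± 0.832 (SD, n = 7). The lowest and highest lines were 27.8 and 31.7% at HoxB, 26.9 and 29.0% at HoxA, 19.5 and 22.8% at HoxD, and 11.9 and 14.4% at HoxC, so that HoxA and HoxB overlapped while HoxC and HoxD each lay apart from every other cluster. In the MEF-2 clonal lines HoxA was at 22.5% ± 1.25, HoxD at 21.6% ± 1.13, HoxB at 18.4% ± 1.12 and HoxC at 11.6% ± 1.14. Here HoxA and HoxD overlapped, with ranges of 20.5 to 24.2% and 20.2 to 22.9%, and HoxB, at 16.4 to 19.5%, lay below both. HoxB was thus the cluster in which the families were farthest apart, by values alone and with no test of a cluster mean. The parental libraries stood at 28.6% and 23.1% for HoxA, 29.4% and 21.2% for HoxB, 12.1% and 10.2% for HoxC, and 18.7% and 17.6% for HoxD, MEF-1 first.

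**Figure D1:**
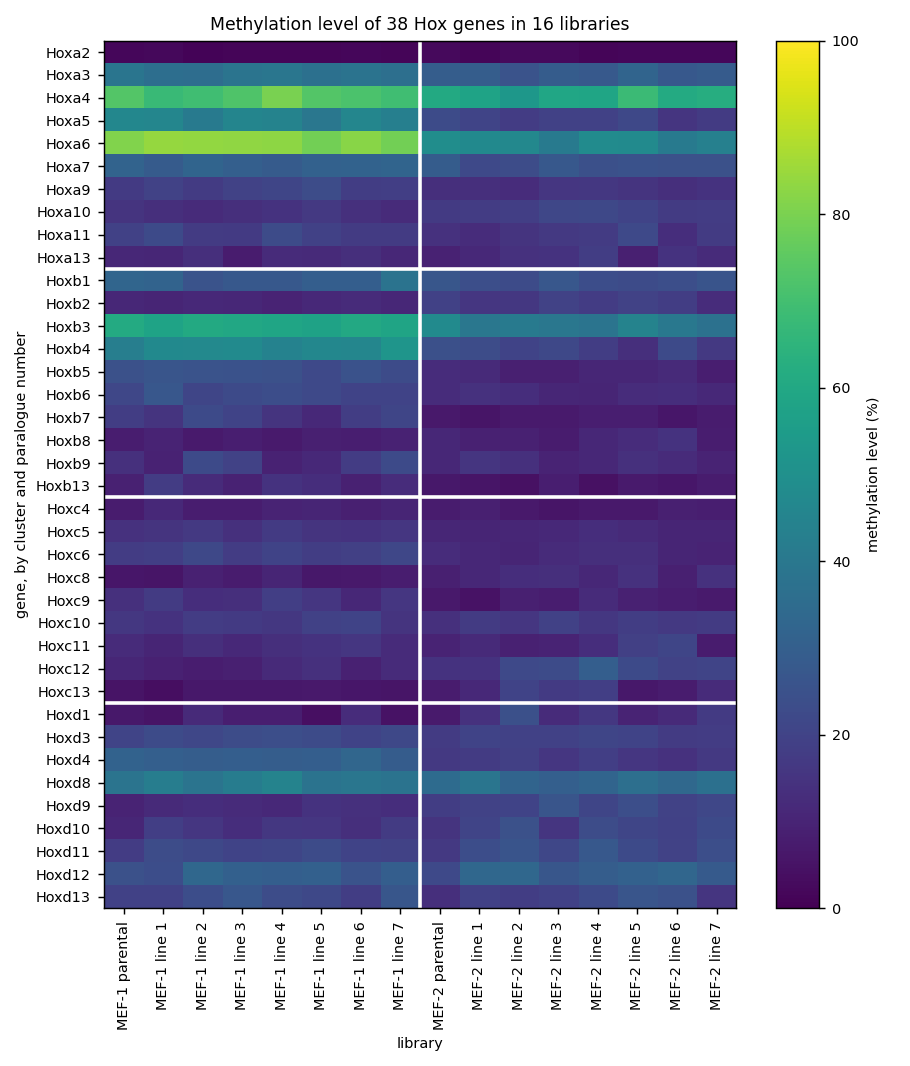
Heat map of the methylation level (percent, colour scale) of each of the 38 Hox genes, in order of cluster and paralogue number, in the 16 libraries. Most genes lie under 25% in both families, while Hoxa4, Hoxa6 and Hoxb3 reach 59.1% or more in the MEF-1 mean.

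By paralogue position, the posterior genes had the lowest pooled level in MEF-1, while in MEF-2 their range overlapped that of the central genes. Grouped into anterior genes with paralogue numbers 1 to 3, central genes with 4 to 8 and posterior genes with 9 to 13, a grouping chosen after the values were seen, the MEF-1 clonal lines stood at 31.1% ± 0.913, 28.1% ± 0.942 and 16.4% ± 0.738 (SD, n = 7). The MEF-2 clonal lines stood at 24.8% ± 1.31, 18% ± 0.546 and 17.2% ± 1.38. The posterior genes thus had nearly the same level in both families, with MEF-1 lines from 15.4 to 17.5% and MEF-2 lines from 15.6 to 19.8%, while the central genes did not overlap, at 26.1 to 28.9% in MEF-1 and 17.3 to 18.9% in MEF-2. The central genes were higher in MEF-1 in each cluster, at 46.2 against 30.8% in HoxA, 26.0 against 12.2% in HoxB, 14.0 against 10.2% in HoxC and 33.6 against 22.6% in HoxD. The posterior genes were not higher in MEF-1 in each cluster. They stood at 17.4 and 16.5% in HoxA, 15.1 and 10.4% in HoxB, 13 and 13.8% in HoxC, and 18.9 and 22.5% in HoxD. Among single paralogue groups, group 6 stood at 33.6% in MEF-1 against 19.2% in MEF-2, group 4 at 33.6 and 21.7%, group 12 at 16 and 24.5%, and group 2 was the lowest, at 6.44 and 9.69%. The pooled order did not hold within each cluster. The central genes stood above the anterior ones in HoxA, where the anterior genes were at 33.1 and 25.4%, and in HoxD, where they were at 21.5 and 19%. Of the 1220 anterior CpGs 1017 belong to paralogue group 3, and CpGs of Hoxa3 and Hoxd3 also lie in central genes. In HoxC the central genes hold 613 CpGs and the posterior genes 358, of 792 in the cluster. The annotated Hoxc5 span takes in CpGs of the posterior genes Hoxc9 and Hoxc10, and these count in both classes.

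The families were then compared gene by gene across their 7 and 7 clonal lines, which asks how far 2 embryonic fibroblast cultures of one inbred strain differ at these loci. The difference is the MEF-1 level minus the MEF-2 level in percentage points, from a quasi-binomial logistic F test fitted to the read counts of each gene and adjusted by the Benjamini-Hochberg method over all 20202 genes, with calls at an adjusted p under 0.05. Of the 38 Hox genes 28 were called, 20 of them higher in MEF-1 and 8 higher in MEF-2, and among all genes 46.1% were called, 29.8% higher in MEF-1 and 16.3% higher in MEF-2. With the CpGs of more than 1 member left out, 19 of the 30 members still measured were called, 11 higher and 8 lower in MEF-1. The clonal ranges of the families did not overlap at 18 of 38 members, where 20.1% of all genes had ranges apart. A call with a difference of 10 points or more was made at 9 members, 23.7% of them, against 15.2% of all genes. The median absolute difference was 5.96 points over the members and 3.31 points over all genes.

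By position, 13 of the 15 central genes were higher in MEF-1 and 1, Hoxc8, was lower, with a median difference of 9.80 points. Of the 13, Hoxa4 and Hoxd8 changed sign without their upstream parts. The 7 anterior genes comprised 4 higher and 2 lower in MEF-1, with a median of 3.06 points. The 16 posterior genes comprised 3 higher and 5 lower, with a median of -0.692 points. Among all genes 46.1% were called, 29.8% higher and 16.3% lower in MEF-1. The posterior genes were thus called at a share near that of all genes. Each of the 4 anterior genes higher in MEF-1 turned under an alternative, Hoxa3 to -5.97 points without CpGs of more than 1 member, Hoxb3 to -22.5 and Hoxd3 to -3.19 points over the main transcript, and Hoxb1 to -1.92 points with a minimum of 20 reads. The central gene that was not called was Hoxb8, at 8.52% ± 1.05 in MEF-1 against 10.3% ± 2.63 in MEF-2 (SD, n = 7). By cluster, HoxA had 6 genes higher and 1 lower in MEF-1, HoxB 7 and 1, HoxC 4 and 3, and HoxD 3 and 3. The HoxD share higher in MEF-1, 33.3%, was near the 29.8% of all genes. Beside Hoxd3, a second of the 3 HoxD genes higher in MEF-1 turned, as Hoxd8 stood at -24.7 points without the upstream part. The 10 members that were not called were Hoxa2, Hoxa11, Hoxa13, Hoxb8, Hoxb9, Hoxc10, Hoxc11, Hoxd11, Hoxd12 and Hoxd13, and all but Hoxa2 and Hoxb8 have paralogue numbers of 9 or more.

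**Figure D2:**
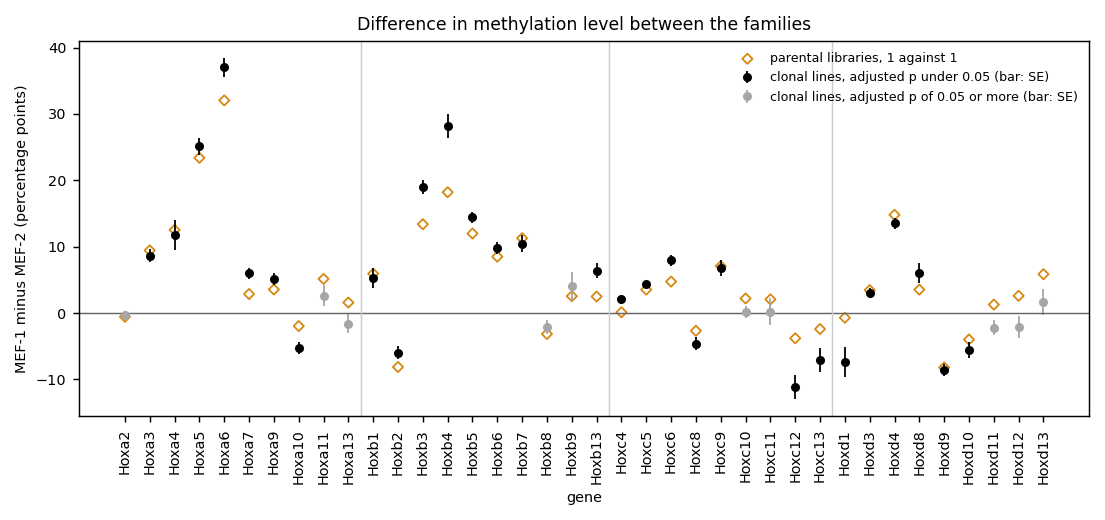
MEF-1 minus MEF-2 methylation difference (percentage points) for each Hox gene, with the standard error as a bar for the clonal lines and an open diamond for the parental libraries, 1 against 1. Positive values mean higher methylation in MEF-1, and the largest clonal ones are 37.0 at Hoxa6, 28.1 at Hoxb4 and 25.1 at Hoxa5.

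Hoxa6, a central HoxA factor of the thoracic body region (chr6:52206288-52208722, minus strand), was the most methylated member in MEF-1 and had the largest difference. Its levels in the MEF-1 clonal lines were 78.7% at the lowest, 83.1% at the median and 84.1% at the highest, with 81.1% in the parental library (95% Wilson interval 79.6 to 82.5%). In the MEF-2 clonal lines they were 41.0, 46.6 and 48.3%, with 49.1% in the parental library (47.2 to 51.0%). The families did not overlap, and the difference of 37.0 ± 1.45 points (SE, adjusted p = 1.61e-08) was at percentile 99.6 of the absolute differences of all genes. With a minimum of 20 reads at a CpG the difference was 13.37 points. Of its 72 CpGs 49 were called one by one, 47 of them higher in MEF-1. Within the gene body alone, 46 CpGs stood at 74.0% ± 3.84 against 12.4% ± 1.72 (SD, n = 7), a difference of 61.6 ± 1.48 points, while the 26 CpGs of its 2 kb upstream were high in both families, at 92 and 85.5%.

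The CpGs that differed lay partly in runs between Hoxa6 and its neighbour Hoxa5. A run was defined as at least 3 successive called CpGs that differ in the same direction with gaps of at most 500 bp. The run with most Hox CpGs, 44, covered chr6:52205350-52206519 from upstream of the Hoxa5 start into the 3′ end of the Hoxa6 gene, a stretch that lies within the annotated Hoxa3 span as well. It stood at 92.2% ± 1.95 in the MEF-1 clonal lines and 25.2% ± 6.26 in the MEF-2 clonal lines (SD, n = 7), with lines from 89.0 to 94.6% and from 15.3 to 32.7%, and with 92.4 and 34.9% in the parental libraries. All 44 CpGs lie upstream of Hoxa5, and 14 of them also in Hoxa6, 13 in its coding exon. A second run of 12 CpGs, chr6:52206534-52207169, began a few bases farther on in Hoxa6, with 7 CpGs in the same coding exon and 5 in the intron, and stood at 88.0 against 20.2%. These runs lie in the gene with the largest family difference or beside it. Of each, a window of 299 bp outside untranslated exons, chosen for its number of called CpGs, is printed from GRCm38/mm10, plus strand, 5′ to 3′, with each CpG that was called in capitals. The first window lies between Hoxa5 and Hoxa6.
Window upstream of Hoxa5, chr6:52205492-52205790: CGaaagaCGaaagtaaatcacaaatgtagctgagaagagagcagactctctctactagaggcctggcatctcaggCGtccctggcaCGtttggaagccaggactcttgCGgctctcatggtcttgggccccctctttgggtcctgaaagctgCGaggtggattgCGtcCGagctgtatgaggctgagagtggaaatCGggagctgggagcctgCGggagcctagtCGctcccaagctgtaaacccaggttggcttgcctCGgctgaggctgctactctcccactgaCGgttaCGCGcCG
Window in the Hoxa6 coding exon and intron, chr6:52206534-52206832: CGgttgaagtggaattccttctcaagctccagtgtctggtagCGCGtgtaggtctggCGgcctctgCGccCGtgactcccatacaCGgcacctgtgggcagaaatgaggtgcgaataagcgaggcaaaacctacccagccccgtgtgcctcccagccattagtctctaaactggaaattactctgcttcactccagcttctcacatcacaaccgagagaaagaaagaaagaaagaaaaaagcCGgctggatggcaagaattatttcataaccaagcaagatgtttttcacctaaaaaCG
The 16 CpGs marked in the first sequence are all its CpGs, and they stood at 92.3% ± 2.19 in MEF-1 against 33.9% ± 10.4 in MEF-2 (SD, n = 7). In the second sequence 9 of 13 CpGs are marked, 7 of them in the coding exon, at 83.0% ± 3.08 and 10.0% ± 3.17. Its CpGs in lower case were not among the CpGs used. They were therefore not tested, and whether they differ is not known. The called CpG with the largest rise in HoxA, at position 52206591 of chromosome 6, lay in this exon, where all 158 reads of the MEF-1 clonal lines and 6 of 153 reads of the MEF-2 clonal lines were methylated.

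Hoxa5, which encodes a factor required for lung and cervicothoracic patterning (chr6:52201754-52204587, minus strand), had MEF-1 lines from 39.8 to 46.1% with a median of 44.6%, and MEF-2 lines from 15.3 to 21.6% with a median of 19.2%. The parental libraries stood at 46.3 and 22.9%. The ranges were apart and the difference was 25.1 ± 1.28 points (SE, adjusted p = 7.58e-08). Of its 169 CpGs 81 were called and 80 of these were higher in MEF-1. The part upstream of the gene differed by 38.8 ± 1.71 points and its body by 12.4 ± 1.43 points. Of its 94 upstream CpGs 44 are those of the longer run, and 18 CpGs in all are shared with the region of Hoxa6.

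Hoxa4, the HoxA member of paralogue group 4 (chr6:52189671-52191753, minus strand), had the highest mean level of its cluster over all 16 libraries. MEF-1 lines stood at 67.7% at the lowest, 71.5% at the median and 79.9% at the highest, and MEF-2 lines at 53.0, 59.1 and 68.2%, so that the families overlapped. The difference was 11.7 ± 2.26 points (SE, adjusted p = 0.00126). Its 2 parts went opposite ways. Upstream the level was 60.2% ± 5.6 in MEF-1 against 37.9% ± 5.56 in MEF-2, a difference of 21.9 ± 2.89 points, while the 27 CpGs of the body were nearly fully methylated in both, at 92.3% ± 2.77 and 98.3% ± 0.328, a difference of -5.86 ± 0.772 points (adjusted p = 5.79e-05 over all gene bodies). Hoxa2, the hindbrain and neural crest patterning gene at the anterior end of the HoxA members, was the least methylated member, with MEF-1 lines from 1.14 to 2.06% and MEF-2 lines from 1.33 to 2.64%, and was not called (difference -0.345 ± 0.229 points, adjusted p = 0.242).

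In HoxB the largest difference was at Hoxb4, known for its action in haematopoietic stem cells and in the cervical skeleton (chr11:96318267-96321638, plus strand). Its levels were 44.5, 47.2 and 52.2% in the lowest, median and highest MEF-1 line and 13.4, 19.9 and 23.3% in the corresponding MEF-2 lines, with 42.6 and 24.4% in the parental libraries. No line of one family reached the range of the other, and the difference was 28.1 ± 1.79 points (SE, adjusted p = 4.23e-07). The 1 kb upstream of its start, used here as its promoter, stood at 67.9% ± 6.14 in MEF-1 against 25.9% ± 6.04 in MEF-2 (SD, n = 7), with ranges of 60.6 to 78.9% and 20.8 to 36.2%, the largest promoter difference among the members at 41.9 ± 3.16 points.

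The next gene along the cluster, Hoxb3, which acts in hindbrain and pharyngeal arch patterning (chr11:96323326-96347930, plus strand), had the highest level of HoxB. MEF-1 lines ran from 57.6 to 60.6% with a median of 58.7%, and MEF-2 lines from 37.2 to 44.8% with a median of 39.8%, and the difference over its annotated span was 19 ± 1.03 points (SE, adjusted p = 1.2e-07). The sign depended on the part of the gene that was read. Over the 63 CpGs of its main transcript with the 2 kb before it, MEF-1 stood at 23.1% ± 2.77 and MEF-2 at 45.7% ± 4.69 (SD, n = 7), with 24.6 and 43.0% in the parental libraries, and the difference was -22.5 ± 2.00 points (adjusted p = 4.91e-06 over the main transcripts).

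Single runs of both directions lay in Hoxb3. A run of 38 CpGs at chr11:96325611-96327432, inside the gene span but before the main transcript, stood at 87.5% ± 2.42 in MEF-1 against 19.3% ± 3.46 in MEF-2. A run of 16 CpGs at chr11:96344233-96344599, with 13 CpGs in the coding exon and 3 in the UTR, stood at 27.5% ± 4.08 in MEF-1 against 89.7% ± 4.12 in MEF-2 (SD, n = 7), with MEF-1 lines from 18.9 to 31.4% and MEF-2 lines from 83.5 to 95.4%. A window of each is printed, as the pair of stretches of 1 gene that differ in opposite directions, together with a stretch of 7 called CpGs close before the start of Hoxb4, at 97.3% ± 2.55 in MEF-1 against 18.3% ± 11.6 in MEF-2. Letters and strand are as in the HoxA stretches, and capitals again mark the called CpGs.
Window in the Hoxb3 5′ run, chr11:96326060-96326285: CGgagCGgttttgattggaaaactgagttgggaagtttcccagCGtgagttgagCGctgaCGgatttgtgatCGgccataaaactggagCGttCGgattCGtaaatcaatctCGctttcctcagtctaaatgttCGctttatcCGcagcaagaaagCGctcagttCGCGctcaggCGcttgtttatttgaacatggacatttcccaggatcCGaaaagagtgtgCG
Window in the Hoxb3 coding exon run, chr11:96344269-96344401: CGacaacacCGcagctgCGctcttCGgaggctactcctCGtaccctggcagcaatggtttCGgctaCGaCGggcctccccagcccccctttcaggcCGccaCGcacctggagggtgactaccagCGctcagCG
Window in the Hoxb4 upstream run, chr11:96317604-96317777: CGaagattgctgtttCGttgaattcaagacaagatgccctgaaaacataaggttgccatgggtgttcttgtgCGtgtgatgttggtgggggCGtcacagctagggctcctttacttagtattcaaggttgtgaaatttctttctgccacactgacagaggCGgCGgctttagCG
Every CpG of these 3 sequences was called, 18 in the first, 12 in the second and 7 in the last. The MEF-2 parental library lay above the MEF-2 clonal mean in the first, at 32.0 against 18.4%, and the MEF-1 parental library lay at 87.9% there. The CpG with the largest rise in HoxB was in the same 5′ part, at position 96327381 of chromosome 11, with 367 of 373 reads methylated in the MEF-1 clonal lines and 4 of 426 in the MEF-2 clonal lines, a difference of 97.5 ± 0.842 points (adjusted p = 9.49e-09 over all CpGs). The CpG with the largest fall, at position 96333599 and so also before the main transcript, had 12 of 178 reads methylated in MEF-1 and 177 of 182 in MEF-2.

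**Figure D3:**
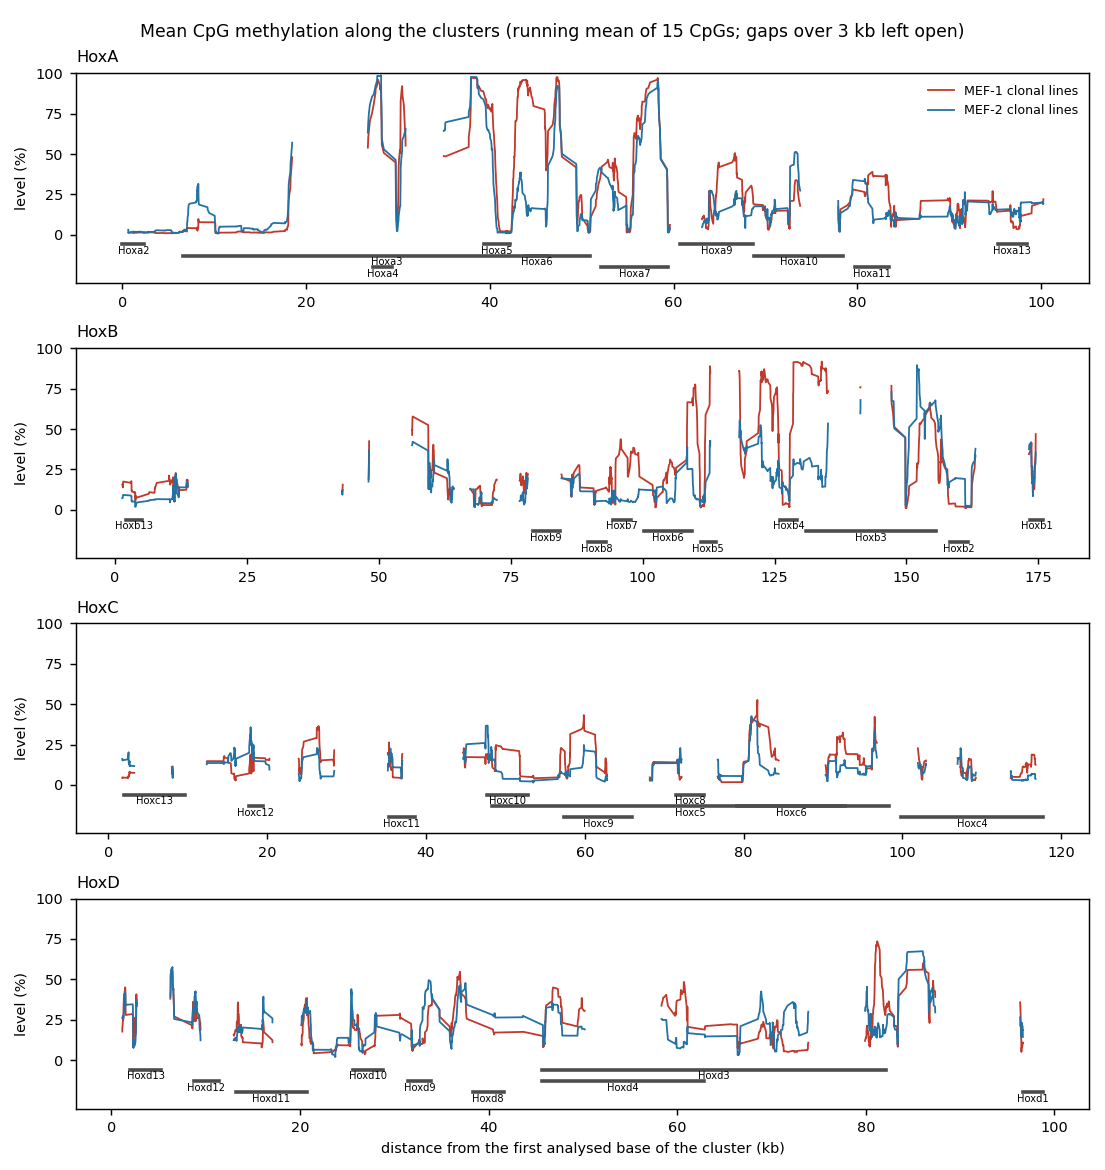
CpG methylation (percent, running mean of 15 CpGs) along each cluster, against the distance in kb from its first analysed base, for the MEF-1 and the MEF-2 clonal lines, with gene spans as bars and gaps over 3 kb not bridged. The curves are far apart around Hoxa6 and across the 5′ part of Hoxb3, and both stay low over most of HoxC.

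On the other side of Hoxb4, Hoxb5, Hoxb6, Hoxb7 and Hoxb13 were called lower in MEF-2, while Hoxb8 and Hoxb9, also on that side, were not called. Hoxb5, a central gene with a role in shoulder girdle position, had MEF-1 lines at 22.2, 25.3 and 26.5% (lowest, median, highest) and MEF-2 lines at 8.23, 10.6 and 12.1%, a difference of 14.4 ± 0.867 points (SE, adjusted p = 2.3e-07). Hoxb6 had 20.2, 22.0 and 27.0% against 10.2, 12.7 and 14.3%, a difference of 9.80 ± 0.975 points. Hoxb7 was at 11.7, 18.3 and 22.4% against 5.68, 7.26 and 8.43%, a difference of 10.5 ± 1.33 points. None of these 3 genes overlapped between the families. The differences of Hoxb5 and Hoxb6 were larger in the 2 kb upstream, at 47.5% ± 5.59 against 7.80% ± 2.54 and at 44.2% ± 7.32 against 4.71% ± 3.11, while their bodies differed by 3.37 and 6.17 points, and with a minimum of 20 reads Hoxb5 differed by 4.89 points. Hoxb13, the most posterior member of the cluster and the lowest in the mean over all 16 libraries, stood at 12.8% ± 2.9 in MEF-1 against 6.27% ± 1.52 in MEF-2 (SD, n = 7). Against this direction, Hoxb2, a hindbrain gene, was called lower in MEF-1, by -5.97 ± 0.928 points, a call lost with a minimum of 20 reads (-1.45 points, adjusted p = 0.296), and its promoter stood at 2.98% ± 1.78 in MEF-1 against 34.6% ± 6.56 in MEF-2, with ranges of 0.82 to 6.45% and 25.2 to 43.7%.

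HoxC was low throughout, and its differences went both ways. Hoxc12, a posterior gene (chr15:102936757-102938609, plus strand), had the largest, with MEF-1 lines at 7.89, 9.36 and 13.7% and MEF-2 lines at 14.7, 22.2 and 30.1% (lowest, median, highest). The ranges lay apart and the difference was -11.1 ± 1.81 points (SE, adjusted p = 0.000343), though the parental libraries, at 10.9 and 14.7%, were closer to each other. Hoxc6, a thoracic gene, was higher in MEF-1 by 7.93 ± 0.832 points, at 19.5% ± 1.52 against 11.5% ± 1.51, and Hoxc13, required for hair and nail keratins, was lower in MEF-1 by -7.05 ± 1.81 points, at 6.00% ± 0.977 against 13.4% ± 5.4. The call at Hoxc13 was lost with a minimum of 5 reads (-3.30 points, adjusted p = 0.125), with one of 20 reads (adjusted p = 0.1) and without MEF-1 lines 1, 4 and 5 (adjusted p = 0.0516). Hoxc10, with the highest level of the cluster in the mean over all 16 libraries, stood at 17.1% ± 2.05 and 17.3% ± 1.11 and was not called (adjusted p = 0.874). Hoxc4, the lowest in that mean, was at 9.59% ± 1.3 and 7.48% ± 1.17 (SD, n = 7). Single CpGs of HoxC still separated the families. At position 103000908 of chromosome 15, 222 of 237 reads of the MEF-1 clonal lines and 5 of 260 of the MEF-2 lines were methylated, and at position 102987813, 43 of 128 and 133 of 139.

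In HoxD the difference was largest at Hoxd4, the paralogue of Hoxa4 and Hoxb4 (chr2:74711929-74729160, plus strand). MEF-1 lines stood at 29.0, 29.8 and 33.1% and MEF-2 lines at 14.3, 16.8 and 18.8% (lowest, median, highest), with parental libraries at 31.5 and 16.7%. The families did not overlap, and the difference was 13.52 ± 0.828 points (SE, adjusted p = 2.7e-07), or 27.2 ± 0.998 points over its main transcript with the 2 kb before it. All 4 genes of paralogue group 4 were called higher in MEF-1, with differences from 2.05 points at Hoxc4 to 28.1 at Hoxb4, against 29.8% of all genes called in this direction. The trait was not particular to group 4, as all genes of groups 3, 5, 6 and 7 were called higher in MEF-1 too. These calls depended on the span read in group 3, where Hoxb3 and Hoxd3 stood at -22.5 and -3.19 points over the main transcript. Without CpGs of more than 1 member Hoxa3 was lower in MEF-1, and Hoxc5 lost its call. Hoxc4 was not called without MEF-1 lines 1, 4 and 5, at 1.28 points (adjusted p = 0.194), and Hoxa4 stood at -5.86 points without its upstream part. Hoxd8, the highest gene of the cluster, was at 40.5% ± 2.62 in MEF-1 against 34.4% ± 3.11 in MEF-2, and Hoxd1, the lowest, at 7.87% ± 3.44 and 15.1% ± 4.84 (SD, n = 7).

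The posterior HoxD genes, which pattern limbs and the urogenital region, were called at 2 of 5, both higher in MEF-2. Among all genes 46.1% were called, near that share, and 16.3% were called higher in MEF-2. Over its main transcript with the 2 kb before it, Hoxd11 was called as well, at 16.9% ± 3.78 in MEF-1 and at 29.8% ± 7.36 in the MEF-2 lines (SD, n = 7). Hoxd9 had MEF-1 lines at 11.5, 13.1 and 14.7% and MEF-2 lines at 19.9, 20.7 and 26.3%, with no overlap and a difference of -8.55 ± 0.917 points (SE, adjusted p = 1.68e-05). Its body, at 11.9% ± 1.24 and 22.7% ± 2.73, gave this direction, while the 7 CpGs upstream stood at 36.5% ± 10.2 and 5.77% ± 4.88, the opposite one. Hoxd10 was at 15.8% ± 1.98 and 21% ± 3.1 (SD, n = 7), a difference of -5.58 ± 1.26 points. Its body alone, at 16.03% ± 2.82 and 17.8% ± 2.43, was not called (-2.08 points, adjusted p = 0.261 by the quasi-binomial test). The CpGs of HoxD with the largest rise and fall lay at positions 74714117 and 74738716 of chromosome 2. In the first, 144 of 147 reads were methylated in MEF-1 and 4 of 152 in MEF-2, and in the second 6 of 176 and 182 of 188. In HoxA the CpG with the largest fall, at position 52235657 of chromosome 6, had 42 of 319 reads methylated in MEF-1 and 291 of 303 in MEF-2.

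Splitting each member into its body and its 2 kb upstream, 27 of 37 bodies were called, 18 higher and 9 lower in MEF-1, against 44.2% of all gene bodies, and 19 of 33 upstream parts, 13 higher and 6 lower, against 44.8% of all upstream parts. Both parts were called in opposite directions at 5 of the 32 members with both measured, namely Hoxa3, Hoxa4, Hoxc5, Hoxd8 and Hoxd9, and at 8.19% of all 12867 genes with both measured. Hoxd8 stood at 25.7% ± 4.28 and 49.3% ± 7.2 over the 6 CpGs of its body and at 43.2% ± 3.3 and 31.6% ± 2.3 upstream (SD, n = 7). Hoxa3 and Hoxc5, whose annotated spans contain other members, were higher in MEF-1 in the body, by 9.33 ± 0.998 and 5.13 ± 0.58 points, and lower upstream, by -9.95 ± 1.42 and -9.00 ± 0.962 points. The annotated start of Hoxc5 lies inside Hoxc10, and the 2 kb before it take in the 1 kb promoter of Hoxc10. The promoter of the main Hoxc5 transcript stood at 7.38% in MEF-1 against 7.62% in MEF-2 (adjusted p = 0.873 by the quasi-binomial test). With the CpGs of more than 1 member left out, Hoxa3 was lower in MEF-1 as a whole, by -5.97 points. Among 1 kb promoters, 20 of the 30 measured members were called, 13 higher and 7 lower in MEF-1, where 41.6% of all promoters were. Promoters under 10% in both families were fewer among the members, 5 of 30 or 16.7%, than among all promoters, 46.3%. Beside Hoxb4 and Hoxb2, the promoter of Hoxd3 stood at 5.24% ± 3.31 and 30.0% ± 7.37, and that of Hoxa10 at 19 and 35.8%, both higher in MEF-2. Promoters were taken before the start of the main transcript. At Hoxd3 and Hoxa10 they lie inside the annotated gene span and are not part of the 2 kb upstream.

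By annotated part, Hox coding exons stood at 16.6% ± 0.707 in MEF-1 against 17.1% ± 1.12 in MEF-2, and introns at 26.1% ± 0.498 and 20.4% ± 0.563 (SD, n = 7). Over all protein-coding genes the coding exons were at 42.6 and 41.8% and the introns at 55.3 and 53.9%. Promoter CpGs of the members, at 25.5 and 17.7%, lay closer to those of all protein-coding genes, at 20.1 and 19.2%. CpGs farther upstream stood at 28.7 and 18.8% in the members and at 51.2 and 49.6% in all protein-coding genes.

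At single CpGs, 894 of the 3470 Hox CpGs were called, 25.8%, with 577 higher and 317 lower in MEF-1, against 20.2% of all CpGs, 11.6% higher and 8.53% lower in MEF-1. The share was 36.6% in HoxB, 25.5% in HoxA, 24.3% in HoxD and 17.2% in HoxC. Differences of 50 points or more made up 314 of the calls, 9.05% of Hox CpGs against 4.33% of all CpGs, and 136 of them were in HoxB. In the least CpG-dense of 5 bins 35.1% of Hox CpGs were called against 27.3% of all, and in the densest 15.8% against 5.89%, so that the share fell with density in both and was higher for Hox CpGs in each.

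Some of the 894 called CpGs lay side by side. Runs numbered 71 at the members, of 11932 in all, 49 of them higher in MEF-1 and 22 higher in MEF-2. They held 427 CpGs, 12.3% of Hox CpGs against 3.85% of all CpGs. Hox CpGs lay in denser CpG sequence, and these run shares were not compared at like density. HoxB had 27 runs with 23.4% of its CpGs and HoxA 25 runs with 14.3%, while HoxD had 12 with 7.65% and HoxC 7 with 3.16%. The longest, the Hoxa5-Hoxa6 stretch, was 6th among all runs by CpGs, where the longest had 60. At least 1 run was found in 28 members, and 4 had runs in both directions. A run in a shared stretch counts for each member there, as the longest does for Hoxa3, Hoxa5 and Hoxa6. Genes with runs were not counted over all genes, so these counts have no share to be set against. In HoxD the longest run, 17 CpGs of an untranslated exon of Hoxd3, stood at 72.7% ± 6.18 in MEF-1 against 12.4% ± 1.65 in MEF-2. A run of 14 CpGs at chr11:96315099-96316527, of which 2 lie in the region of Hoxb4, stood at 88.2% in MEF-1, with lines from 84.8 to 90.7%, and at 27.0% in MEF-2, with lines from 23.2 to 34.4%.

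**Figure D4:**
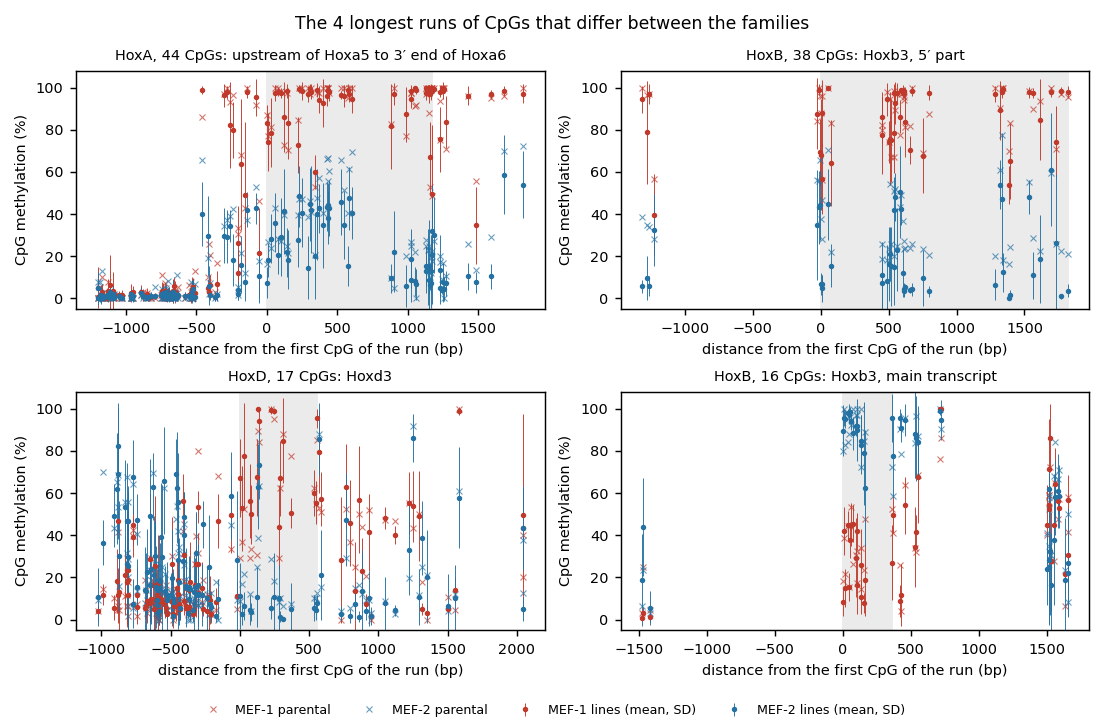
Methylation (percent) of single CpGs against the distance in bp from the first CpG of the run, for the 4 longest runs, with dots and bars for the mean and SD of the 7 lines of each family, crosses for the parental libraries and grey for the run itself. The families are apart within the grey area, as the runs were chosen for that difference, and in the Hoxb3 main transcript the MEF-2 lines are the higher ones.

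The parental libraries, which took no part in the family test, gave a second reading of the same differences with 1 library per family and hence no test. The clonal lines were grown from cells of these cultures, so this reading is not independent of theirs. The parental MEF-1 minus MEF-2 difference had the sign of the clonal one at all 28 called members, and at 92.9% of all 9313 called genes. It was 32.0 points at Hoxa6, 23.4 at Hoxa5, 18.2 at Hoxb4, 14.8 at Hoxd4, 13.4 at Hoxb3 and 0.117 at Hoxc4. Over the called members the parental difference was 0.765 of the clonal one at the median, and 0.80 over all called genes.

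In the runs the MEF-2 parental library often lay between the families. At 20 of the 49 runs that were higher in MEF-1 it was above all 7 MEF-2 clonal lines and at 0 below them, and at 7 of the 22 runs higher in MEF-2 it was below all 7 and at 0 above. The MEF-1 parental library was below all 7 MEF-1 lines at 9 and above them at 3 of the 49 runs, and above at 5 and below at 1 of the 22. The runs were chosen with the clonal values of these lines, so the counts are a description only. They were not made over all runs and have no share to be set against. An example is the untranslated exon of Hoxb4, where 11 CpGs stood at 98.2% in both the MEF-1 clonal mean and the MEF-1 parental library, at 37.4% in the MEF-2 clonal mean and at 74.9% in the MEF-2 parental library. Intermediate levels in the MEF-2 parental library were not limited to the Hox runs. Over all CpGs, 35.7% lay between 10 and 90% there, against 27.1% in the MEF-2 clonal mean.

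Within each family the 7 clonal lines were compared with their parental library, which asks whether levels shifted on growth from single cells. By the quasi-binomial test 0 Hox genes passed an adjusted p under 0.05 in either family, as did 0.0% of all genes. An unadjusted p under 0.05 was reached by 3 members in MEF-1, Hoxd9, Hoxd10 and Hoxd11, and by 6 in MEF-2, and by 803 and 869 of all genes. Each test rests on 1 parental library, so the lack of calls does not show that levels stayed the same. The position of the lines around that library is given as values.

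All 7 lines lay above the parental library at 8 members in MEF-1, against 9.83% of all genes, and at 9 members in MEF-2, against 10.4% of all genes. They lay below it at 2 members in MEF-1, Hoxa5 and Hoxb3, against 9.45% of all genes, and at 6 in MEF-2, Hoxa5, Hoxa6, Hoxa7, Hoxb3, Hoxb4 and Hoxb5, against 9.54% of all genes. Of the 9 members above it in MEF-2, all but Hoxa10 and Hoxc10 were HoxD genes. The median difference from the parental library over the HoxD members was 2.78 points in MEF-1 against 6.24 points in MEF-2.

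At Hoxd12, a posterior HoxD gene, the MEF-2 parental library stood at 22.2% (95% Wilson interval 20.1 to 24.5%) and the MEF-2 lines from 26.7 to 33.6%, 8.71 points higher in the clonal lines than in the parental library, the largest such difference among the members in that family. At Hoxd10, the parental library was at 10.9% and the lines at 13 to 18.5% in MEF-1, and at 14.9% with lines at 15.3 to 24.9% in MEF-2. Hoxb3 lay on the other side, at 47.7% in the MEF-2 parental library and 37.2 to 44.8% in the MEF-2 lines. At Hoxd1 the MEF-2 lines ran from 9.83 to 24.6% with the parental library at 7.18%. Relative coverage of HoxD was 0.764 in MEF-2 line 3, and its part in these HoxD values was not tested.

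**Figure D5:**
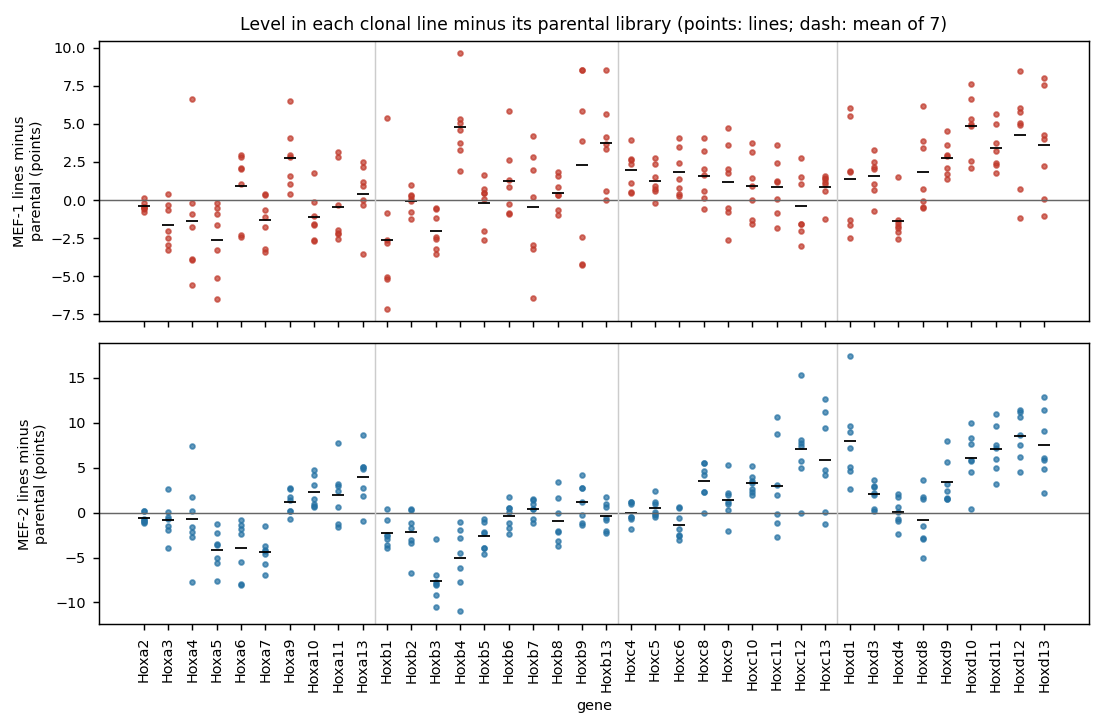
Clonal minus parental methylation (percentage points) of each Hox gene in the 7 lines of each family, with the parental library at 0. All 7 MEF-2 lines lie above the parental library at 7 of 9 HoxD genes and below it at Hoxb3, Hoxb4 and Hoxb5.

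Lines of 1 family spread widely at some genes. The largest SD in MEF-1 was at Hoxb9, 16% ± 5.78, with lines from 9.51 to 22.3%, followed by Hoxb1, at 29.9% ± 4.09, and Hoxa4. In MEF-2 it was at Hoxc13, 13.4% ± 5.4, with lines from 6.31 to 20.2%, followed by Hoxc11, at 13.1% ± 5.03, and Hoxd1 (SD, n = 7). The study reports low coverage of chromosomes without Hox genes in some or all MEF-1 lines, and its text does not name the lines. MEF-1 lines 1, 4 and 5 were read here as 1 group. These 3 lines did not overlap the other 4 at 5 of 38 members, a share close to the 11.6% of all genes. They were lower at Hoxb9, at 9.51 to 11.3% against 17.7 to 22.3%, and at Hoxb7, at 11.7 to 15.2% against 18.3 to 22.4%, and higher at Hoxa9, Hoxa11 and Hoxb13.

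Finally, the state of each CpG in the parental library was followed into the lines. Of the Hox CpGs 57.8% were at 0 to 10% in the MEF-1 parental library and 56.2% in the MEF-2 one, against 40.3 and 39.97% of all CpGs, and 8.47 and 4.06% were at 90 to 100%, against 28.5 and 24.3%. A CpG at 0 to 10% in the parental library was in that range in a clonal line at 86.5% ± 1.64 of Hox CpGs in MEF-1 against 86.7% ± 1.85 in MEF-2 (SD, n = 7), against 92.3% ± 0.725 and 93.5% ± 0.641 of all CpGs. At 90 to 100% the share that kept the range was 93.2% and 88.9% for Hox CpGs, and 93.5 and 91.0% for all. CpGs at 10 to 40% in the MEF-2 parental library, 28.1% of Hox CpGs, were at 0 to 10% in the lines in 54.1% of cases, against 45.5% for all CpGs. In MEF-1 the Hox share was close to that of all CpGs, at 46.4 against 44.2%. The share of CpGs in 1 of the ranges that a faithfully inherited CpG can have in a clone, 0 to 10, 40 to 60 or 90 to 100%, was 80.4% ± 2.7 in MEF-1 against 82.0% ± 3.01 in MEF-2 for Hox CpGs, against 83.7% ± 1.38 and 82.8% ± 1.76 for all. It was lowest in HoxD, at 73.9 and 76.6%. The 40 to 60% range presumes a chromosome pair. MEF-2 line 3, with a relative HoxD coverage of 0.764, had a HoxD share of 69.9%, the lowest of its family. It also had the lowest MEF-2 share over all Hox CpGs and over all CpGs, at 79.1% in the latter. The same held in HoxA, HoxB and HoxC, at 78.0, 76.6 and 78.9%, so the low share was not particular to HoxD. MEF-1 line 5 had a HoxD share of 69.9% as well, where relative HoxD coverage of the MEF-1 lines ran from 0.943 to 1.07. The part of coverage was not tested.

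Genes that act with the Hox factors were read from the same gene table. Of 9 cofactors of the Pbx, Meis and Pknox families, which bind DNA together with Hox proteins, 2 were called higher and 2 lower in MEF-1, the largest difference being -10.1 ± 2.58 points at Meis3. Of 18 Polycomb and Trithorax regulators 4 were higher and 1 lower in MEF-1, where 29.8% of all genes were higher and 16.3% lower. The largest was Ezh2, the Polycomb methyltransferase, at 28.6% ± 2.33 in MEF-1 against 16.4% ± 2.07 in MEF-2 (SD, n = 7), with ranges of 24.4 to 31.1% and 14.7 to 20.9%. Of the 4 ParaHox genes, the sister genes of the Hox clusters, Gsx2 was called lower in MEF-1, by -7.96 ± 1.37 points. The median absolute differences of these lists were 4.78, 2.29 and 1.57 points, against 5.96 points at the Hox members and 3.31 points over all genes.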

How the data were processed

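Target capture bisulfite sequencing was done by the authors with RNA probes of the SureSelectXT Methyl-Seq kit, so CpGs outside the captured regions were not analysed here. Per the labels, reads were processed with Trim Galore 0.6.0 and Bismark against mm10. The deposited values are counts of methylated and unmethylated reads per CpG in each library, with both strands combined. Removal of duplicate reads was not given in the sources used here, so reads may not be independent molecules, and intervals cover counting error only. Left out were 2 columns of per-sample values that match no sample, and the authors' own columns of fidelity scores, neighbour similarity and CpG number.

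A CpG was kept where each of the 16 libraries had at least 10 reads (1203687 CpGs). Of these, 113 were not CpGs in the reference sequence, and 0 of the 113 were Hox CpGs. Methylated and total reads were summed over the CpGs of each gene (at least 3 CpGs) of GENCODE M21. Families were compared across 7 and 7 clonal lines by a quasi-binomial logistic F test with dispersion of at least 1, and p-values were adjusted by the Benjamini-Hochberg method over 20202 genes, 10282 promoters or 1203687 CpGs. The tests were tried on simulated data first. Python 3.11.15, numpy 2.4.6, scipy 1.17.1, pandas 2.3.3, R 4.3.3 and limma 3.58.1 were used. Wilson intervals are at 95%. Per-line values are given for the highest and lowest member of each cluster, the 10 largest called family differences, the 3 largest differences from the parental library and the 3 largest SDs of each family, and the 8 runs with most CpGs, 1 of which is not reported here, and further members as examples chosen after their values were seen. The members and lists were chosen with earlier results of these data known, and position classes after the values were seen. Sequences are from the RefSeq GRCm38 assembly.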

Additional observations from a re-analysis of the deposited data

Results flagged for a closer look

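At Hoxb4 the clonal lines moved away from their parental library in opposite directions in the families. All 7 MEF-1 lines were above it, by 4.79 points on average, and all 7 MEF-2 lines below it, by -5.03 points. The difference between the families was not tested, and each family has 1 parental library.

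Among 84 groups of 7 lines, 3 held a line far from the others by Dixon's test, which chance does in about 1 in 20 groups. Hoxc13 stood at 3.90% in MEF-1 line 1 and at 5.73 to 6.74% in the other MEF-1 lines. Hoxd4 stood at 33.1% in MEF-1 line 6, with the other lines at 29.0 to 30.2%. The HoxC cluster stood at 13.9% in MEF-2 line 4, with the others at 10.5 to 11.9%.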

How the results depend on the processing

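The count of Hox genes called between the families, 28, was 28 to 29 when each clonal line was left out in turn, 28 with a minimum of 5 reads, 23 of 35 with a minimum of 20, 30 with CpGs thinned to 10 reads, 31 by limma on percentages, 27 of 37 without the upstream part, and 24 without MEF-1 lines 1, 4 and 5. Hox CpGs called fell from 894 to 398 with a minimum of 20 reads, where 1413 were tested. Runs fell from 71 to 29 when 5 or more CpGs were required. Promoters numbered 25 of 35 with 2000 bp before the start and 24 of 35, 12 in each direction, with 1000 bp before to 500 bp after it. Clonal against parental gave 0 calls under each alternative run. Lines of the families share only numbers, since the correlations of same-numbered lines ran from -0.0393 to 0.0205. With a replicate block the counts were 28 genes, 800 CpGs and 17 promoters, and no gene's call changed.

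Over the whole span from first to last member, HoxA stood at 25.4% in MEF-1 against 20.9% in MEF-2, and HoxB and HoxC at 26.7 and 14.1% in MEF-1. With a minimum of 20 reads, HoxA was at 24.6% and HoxB at 17.0% in MEF-2, HoxC at 12.3 and 10.2%, and HoxD at 24.97 and 23.5%. The mean of CpG percentages gave 20.2% for HoxD in MEF-1. Faithful shares were 70.4 and 70.8% without the 40 to 60% range and 86.0 and 86.4% with CpGs thinned to 10 reads.

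Family differences of genes changed sign in 27 of 900 alternatives, and the cause was not tested. The replicate block and the use of reference CpGs only, both among these alternatives, kept the main difference and could not change a sign. Without the upstream part Hoxd8 stood at -24.7 points, Hoxa4 at -5.86, Hoxc11 at -4.43 and Hoxd1 at 0.428. Over the main transcript Hoxb3 stood at -22.5 and Hoxd3 at -3.19, and without CpGs of more than 1 member Hoxa3 stood at -5.97 and Hoxd3 at -0.804. A minimum of 20 reads gave -4.71 at Hoxa11, 0.391 at Hoxa13, -1.92 at Hoxb1 and -3.37 at Hoxc11, and one of 5 reads 0.203 at Hoxd12. Thinning gave -0.591 at Hoxd8, -0.741 at Hoxc11 and -1.82 at Hoxc10, and limma -0.331, -0.813 and -1.80. Leaving out single lines moved Hoxc11 from -0.947 to 1.53 and Hoxc10 from -0.329 to 0.578. Without MEF-1 lines 1, 4 and 5, Hoxb1, Hoxc4, Hoxc13, Hoxd1 and Hoxd3 lost their calls and Hoxb9 gained one, at 7.92 points (adjusted p = 0.00275 by the quasi-binomial test). Calls were also lost at Hoxb2, Hoxc13 and Hoxd1 with a minimum of 20 reads, at Hoxc13 with one of 5, at Hoxb1 and Hoxd10 without the upstream part, and at Hoxc5 without CpGs of more than 1 member.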

Other observations

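Noncoding RNA genes of the clusters showed differences of both signs between the clonal lines of the families. Of 8 tested, 4 were called higher and 2 lower in MEF-1, against 29.8 and 16.3% of all genes, with a median absolute difference of 11.4 points. Hotair, the antisense RNA gene of the posterior HoxC cluster, shares none of its 28 CpGs with the 38 coding members and stood at 25.2% ± 2.75 in MEF-1 against 12.6% ± 2.01 in MEF-2 (SD, n = 7), with lines from 20.9 to 28.1% and from 9.05 to 15.1%. Hottip, at the posterior end of HoxA, stood at 26.0% ± 4.3 and 11.5% ± 4.01, and 36.1% of its CpGs lie in members. Hoxb3os, with 81.2% of its CpGs in members, went the other way, at 22.9% ± 1.56 in MEF-1 against 37.6% ± 1.91 in MEF-2. The calls at Hoxaas3 and Hoxb5os rest wholly on CpGs of the coding members, and the read strand of a methylation level does not separate a gene from its antisense partner.

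Of 14 genes listed at the ends of the clusters 12 were tested, and 3 were called higher and 1 lower in MEF-1, against 29.8 and 16.3% of all genes. Evx1, a homeobox gene next to posterior HoxA, differed most, by 13.46 ± 1.39 points, with MEF-1 lines from 25.8 to 35.4% and MEF-2 lines from 13.48 to 18.6%. Ttll6 beyond HoxB and Lnpk beyond HoxD were higher in MEF-1 by 11.5 ± 2.49 and 9.46 ± 1.82 points, and Snx10 was lower by -2.56 ± 0.808 points. The median absolute difference of the 12 genes was 2.34 points, against 3.31 over all genes.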
